A study of Rattus norvegicus with 4 samples.

Results

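The genes described here are the heat shock proteins and chaperones of the rat hippocampus. They were taken by symbol: every gene beginning with Hspa, Hspb, Hspd, Hspe, Hsph, Hsp90 or Dnaj, every Cct gene followed by a digit, and Hsf1, Hsf2, Bag1, Bag3, Stip1 and Tcp1. A probe counted as a member where the transcript accession printed for it resolved to such a symbol in RefSeq. This gave 77 probes of 55 genes, out of 41012 noncontrol probes, of which 10768 resolved to 8899 symbols. Of 92 protein-coding rat symbols that the rule covers, 37 had no resolved probe and were not analysed here. Among those 37 were Hspa1b, Hspa9, Dnajb1, Dnajb5, Dnajc6, Hsf1, Bag1, Cct7 and Cct8.

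The RNA came from male Wistar rats that were 10 weeks old when they were allocated to 3 groups. The sedentary group (10 rats) lived in standard cages, the WR group (8 rats) had a running wheel without resistance, and the RWR group (8 rats) had a wheel whose resistance was raised to 30% of body weight over 4 weeks. Hippocampi were collected on the day after the last day of running. The methods describe equal amounts of RNA from replicates being pooled before labelling, so each group is 1 pool and 1 biological replicate, and no comparison between groups can be tested. How many rats entered each pool is not stated outright in the sources used here, and it need not be the size of the group. Chips 1 and 2 both carried the WR pool against the sedentary pool, with the dyes Cy3 and Cy5 exchanged on the second. Chips 3 and 4 carried the RWR and sedentary pools in the same way. WR and RWR are thus both read against sedentary RNA and share that control. The hippocampus is a mixture of cell types, and in such bulk RNA fewer cells of a type and less RNA per cell cannot be told apart.

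Each value below is a log2 ratio of running over sedentary. The mean of a pair of chips is called the running part, and the remainder, which keeps its sign with the dye (Cy5 over Cy3), is called the dye part. The dye part was the larger of these for 58 of 77 member probes in WR, against 70.3% of all probes, and for 50 of 77 in RWR, against 67.6%. Turned to running over sedentary, the chips of a pair correlated negatively. Over all probes r was -0.761 for chips 1 and 2 and -0.686 for chips 3 and 4, and over member probes it was -0.878 and -0.844. The stronger member values rested on dim probes: over the 70 member probes well above background in every channel r was -0.638 and -0.571. The directions given below rest on the dyes named in the labels and methods. Whether the swap was carried out as labelled could not be settled from the files, and a chip with its dyes the other way round would exchange the running part and the dye part of its pair. Of the hippocampal neuron markers looked at, 5 of 8 had a probe, and all 5 were well above background in every channel.

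Heat shock proteins are molecular chaperones. HSP70 proteins bind unfolded stretches of other proteins with the help of J-domain partners, which start ATP hydrolysis, and pass clients on to HSP90 through co-chaperones such as Stip1. Small heat shock proteins hold denatured proteins without using ATP, HSP60 with HSP10 folds proteins inside mitochondria, and the CCT ring folds actin and tubulin. Heat shock factors bind heat shock elements in the promoters of many of these genes and raise transcription under heat and other protein-damaging stress. Neurons hold large amounts of the constitutive members, such as Hspa8 and the HSP90 proteins, and the stress-inducible Hspa1a is low in unstressed brain.

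Promoters were searched first, because the heat shock element is the sequence that ties many of these genes together. RefSeq promoter windows on build GRCr8, from 250 bases before to 50 bases after the start site, were given for 47 of the 55 genes. Dnaja2, Dnajb4, Dnajc12, Dnajc2, Dnajc22, Dnajc8, Hsp90aa1 and Hspb2 were not matched. The long form of the heat shock element was taken as 3 units of GAA, each the inverse (TTC) of the one before and 2 bases from it, and was searched on both strands. It lay in 6 of 47 member windows (12.8%) and in 267 of 33469 windows in all (0.798%). The genes with it were Dnaja1, Hspa8, Hspd1, Hspe1, Hsph1 and Cct4. A shorter form of 2 such units, which every long match also contains, lay in 19 of 47 member windows (40.4%) and in 15.9% of all windows. The stretches around the long form in Hspa8, Hspe1, Hspd1 and Hsph1 are given here 5′ to 3′ on the strand of the gene, with the element in capitals, since these are the member matches that lie wholly before a start site.
Hspa8, chr8:50080439-50080491, plus strand: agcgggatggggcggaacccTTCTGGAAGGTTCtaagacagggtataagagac
Hspa8, chr8:50080281-50080333, plus strand: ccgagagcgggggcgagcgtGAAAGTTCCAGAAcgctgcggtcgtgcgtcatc
Hsph1, chr12:10427312-10427364, plus strand: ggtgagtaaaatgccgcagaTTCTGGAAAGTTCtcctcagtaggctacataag
Hspe1, chr9:64084242-64084299, plus strand: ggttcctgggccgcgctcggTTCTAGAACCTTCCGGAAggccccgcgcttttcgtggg
Hspd1, chr9:64084242-64084287, minus strand: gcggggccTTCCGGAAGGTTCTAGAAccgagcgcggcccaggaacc
The Hspe1 and Hspd1 lines are the same piece of chromosome 9 read on opposite strands. These genes lie head to head, and a single run of 18 bases holds overlapping matches for both. In Dnaja1 and Cct4 the match lay after the start site and is not printed. A match is a description of the letters only. It says nothing of whether a heat shock factor was bound in these animals, and a window without a match says only that these letters are not in it.

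No heat shock protein or chaperone passed the selection rule read from the study's methods in either comparison. The rule asked both chips of a pair to read more than 1.5-fold or less than 0.75-fold, with the scanner software's p-value under 0.01 on both. In WR, 0 of 77 member probes passed, against 13 probes of all (0.0317%), and in RWR 0 of 77, against 24 of all (0.0585%). The paper reported many more changed genes in each comparison, so its lists need not have used the p-value in this way. With the fold cutoffs alone, 0 of 77 passed in each comparison, against 225 of all probes (0.549%) in WR and 608 (1.48%) in RWR. At these background shares a list of this size would hold about as few, so the count of 0 says little of the members as a group. Over the 55 genes, each read at its brightest probe, the median for WR was -0.003 and that for RWR -0.030 on the log2 scale, beside 0.005 and -0.002 over all probes. There were 70 member probes with both dyes well above background on each of the 4 chips, and all 70 had a mean within 0.25 of 0 on the log2 scale, in WR as in RWR. Over all probes of that brightness this held for 97.4% in WR and 97.1% in RWR.

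**Figure D1:**
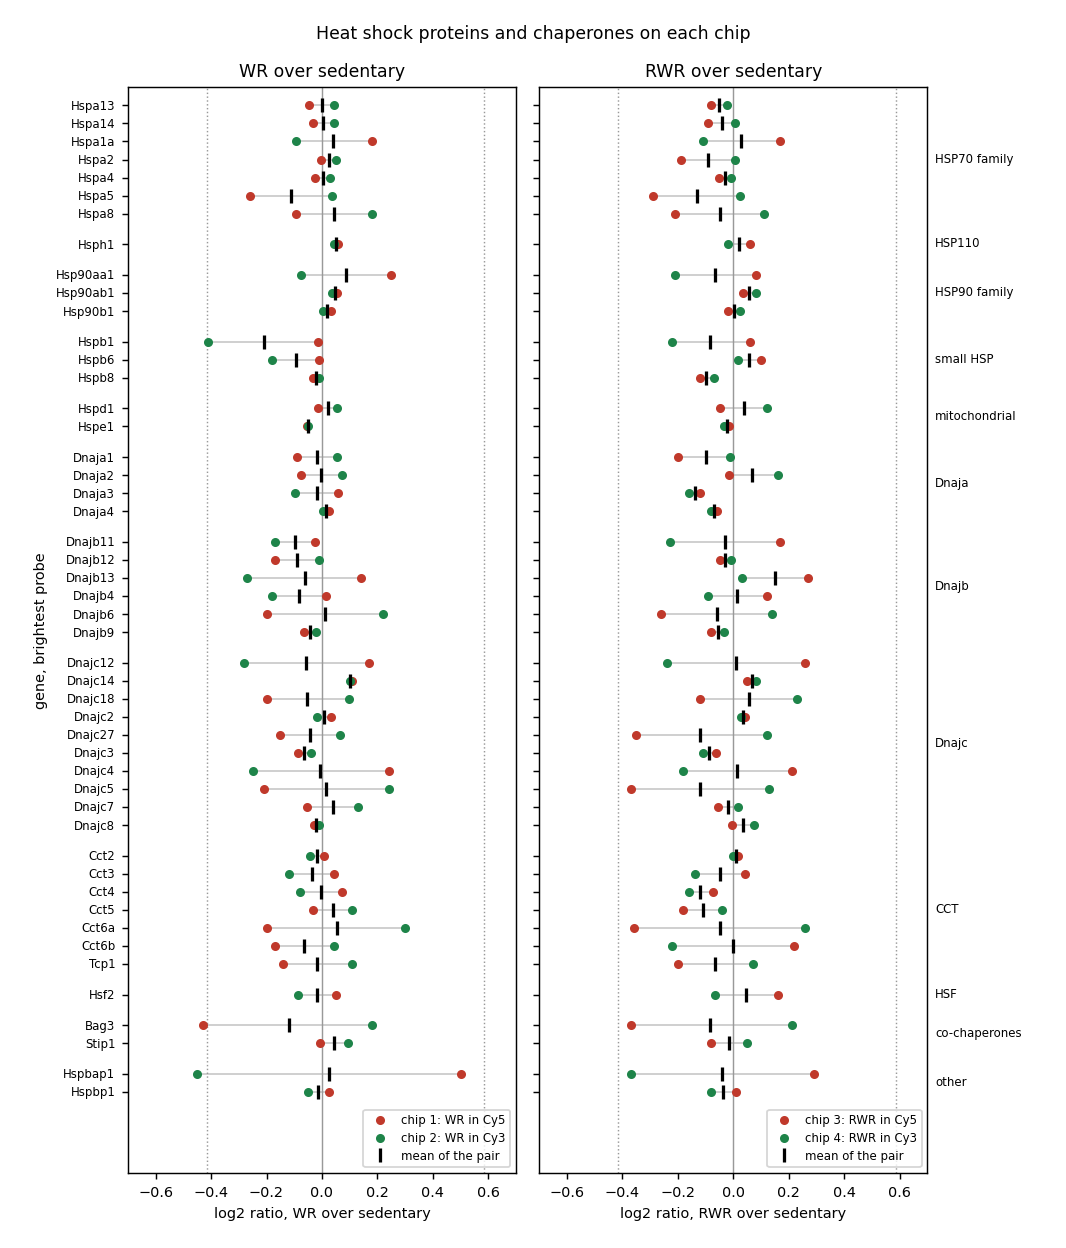
Log2 ratio of running over sedentary for the 48 member genes whose brightest probe was well above background in every channel, ordered by role (names at right). Left, WR; right, RWR; red and green points are the chips with the running pool in Cy5 and in Cy3, black bars are the mean of the pair, and dotted lines mark 1.5-fold and 0.75-fold. The means lie between -0.21 (Hspb1 in WR) and 0.15 (Dnajb13 in RWR), and for many genes the red and green points lie on opposite sides of 0.

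The HSP70 family had 8 genes on the array. Their median was 0.015 for WR and -0.045 for RWR on the log2 scale. Hspa8, the constitutive cytosolic HSP70 whose promoter holds the elements printed above, had 4 probes. At its brightest probe the log2 ratios were -0.093 and 0.18 in WR and -0.21 and 0.11 in RWR, so each pair crossed 0. The 4 probes had means between -0.029 and 0.043 in WR and between -0.20 and -0.047 in RWR. All 4 were below 0 in RWR, and on 2 of them both RWR chips were below 0: one read -0.25 and -0.15, with processed signals of 514 in RWR against 609.7 in sedentary on chip 3 and 505 against 562 on chip 4, and the other read -0.074 and -0.045. The size of the RWR mean at Hspa8 thus depended on the probe, with a span of 0.15, the largest between probes of 1 member gene in RWR.

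Hspa1a, the stress-inducible HSP70, was close to sedentary in both running pools, with a mean of 0.040 in WR and 0.029 in RWR. Its brighter probe was printed at 10 positions, which gives an error within each chip. The log2 ratio was 0.18 ± 0.040 (SD, 9 spots) on chip 1, -0.095 ± 0.033 (10 spots) on chip 2, 0.17 ± 0.020 (10 spots) on chip 3 and -0.11 ± 0.036 (10 spots) on chip 4. Every chip with the running pool in Cy5 read above 0 and every chip with it in Cy3 read below 0, by several spot SDs. The spots of a chip are technical repeats, and their SD leaves out the differences between rats and between labellings. The second Hspa1a probe had means of -0.002 and -0.083. Hspa1a and Hspa1b are near-identical copies, and what share of this signal came from Hspa1b RNA was not tested.

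**Figure D2:**
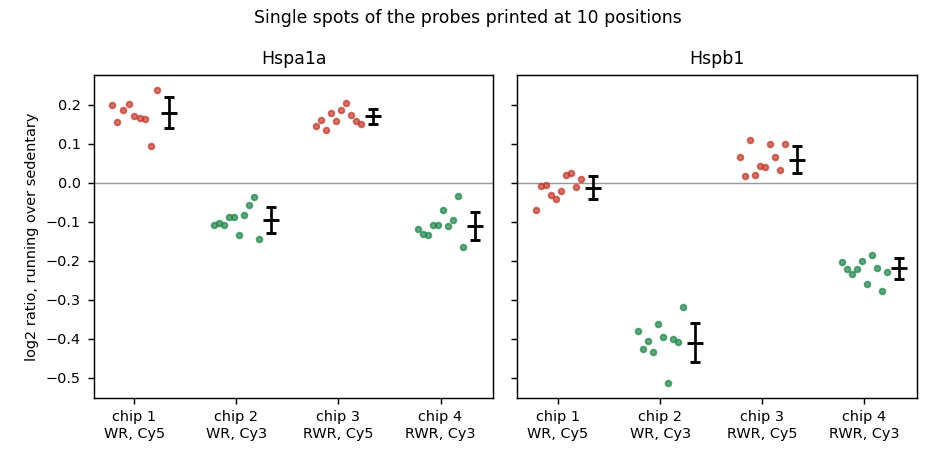
Log2 ratio of running over sedentary at each spot of the Hspa1a and Hspb1 probes printed at 10 positions, for the 4 chips; red, running pool in Cy5; green, running pool in Cy3; black bars, mean ± SD over spots. Hspa1a reads near 0.18 in Cy5 and near -0.11 in Cy3 in both running pools, and Hspb1 reads lowest on chip 2, at -0.41.

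Hspa5 (BiP), the HSP70 of the endoplasmic reticulum, had the lowest mean of its family, -0.11 in WR and -0.13 in RWR. Its chips read -0.26 and 0.036 in WR and -0.29 and 0.025 in RWR, so it was lower only with the running pool in Cy5. Hspa4, an HSP110-type relative of HSP70, read -0.025 and 0.029 in WR and -0.051 and -0.007 in RWR at its brighter probe. Hspa13 read -0.047 and 0.045 in WR and -0.082 and -0.023 in RWR, so in RWR it was below 0 on both chips. Hspa2 had means of 0.025 in WR and -0.092 in RWR, and Hspa14 of 0.005 and -0.042. Hsph1, the HSP110 nucleotide exchange factor with an element ending 24 bases before its start site, was above 0 on both WR chips at 0.059 and 0.044 and read 0.059 and -0.021 in RWR. Its WR mean of 0.052 was 0.005 with either alternative background treatment.

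The HSP90 family had 3 genes, and at the brightest probe none had a mean below 0 in WR. Hsp90ab1, the constitutive cytosolic HSP90, differed little between the dyes. Its brightest probe read 0.055 and 0.037 in WR and 0.034 and 0.083 in RWR, above 0 on all 4 chips, with a dye part of 0.009 and -0.025. Its WR mean of 0.046 was 0.007 with normexp and 0.014 without background correction. Its second probe read 0.11 and 0.12 in WR and -0.035 and 0.094 in RWR. Hsp90aa1, the inducible cytosolic HSP90, had 4 probes, whose means ran from -0.039 to 0.086 in WR and from -0.11 to 0.004 in RWR. At its brightest probe it read 0.25 and -0.074 in WR and 0.080 and -0.21 in RWR, higher in Cy5 and lower in Cy3 each time. Another Hsp90aa1 probe was below 0 on all 4 chips, at -0.016, -0.063, -0.010 and -0.20, so probes of this gene did not share a direction. Hsp90b1 (GRP94), the HSP90 of the endoplasmic reticulum, had means of 0.017 and 0.003.

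The small heat shock proteins had 5 genes, and Hspb1 (HSP27), which guards the actin cytoskeleton, had the lowest WR mean of any member gene. Its probe was also printed at 10 positions. It read -0.013 ± 0.029 (SD, 10 spots) on chip 1, -0.41 ± 0.051 (10 spots) on chip 2, 0.059 ± 0.034 (10 spots) on chip 3 and -0.22 ± 0.027 (10 spots) on chip 4. The mean was -0.21 in WR, a ratio of 0.865, and -0.083 in RWR. On chip 2 the processed signal was 285 in WR and 377 in sedentary, and on chip 1 it was 351 and 354. The lower value thus came from the chips with running in Cy3, and in WR the scanner software's p-value was 0.92 on chip 1 and 0.053 on chip 2. Hspb6 (HSP20) read -0.010 and -0.18 in WR and 0.10 and 0.016 in RWR, below 0 on both chips of the first pair and above 0 on both of the second. Hspb8, which works with Bag3 in clearing damaged proteins, was below 0 on all 4 chips, at -0.034, -0.012, -0.12 and -0.069. Its RWR mean of -0.097 was -0.040 with normexp and -0.053 without background correction.

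The other small heat shock proteins, Hspb2 and Hspb3, which are known from muscle, were dim here, and their ratios followed the dye. Hspb2 read 1.63 and -0.99 in WR and 0.72 and -0.85 in RWR, with the scanner software's p-value under 0.01 on all 4 chips. Its processed signals on chip 1 were 53.6 in WR and 17.4 in sedentary, and on chip 2 they were 26.0 in WR and 51.7 in sedentary, so the brighter channel was Cy5 both times. Cct8l2, a relative of the CCT ring subunit Cct8, behaved in the same way, with 1.28 and -1.38 in WR and 1.49 and -2.39 in RWR. Its Cy5 channel was well above background on all 4 chips and its Cy3 channel on none, so each of its ratios sets a measured channel against one that was not, and its means of -0.047 and -0.45 are not a reading of the pools. Hspb2 was in the same state on chips 1, 2 and 4. Hspa1l, known from testis, read 0.75 and -0.50 in RWR, again with its Cy5 channel alone well above background. In WR, Hspa1l and Hspb3 were well above background in no channel of the running pool and on 1 chip of sedentary, and no fold is given for them there. Dnajc5g was not well above background in either pool on any chip, and its log ratio is listed as 0 on all 4.

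**Figure D3:**
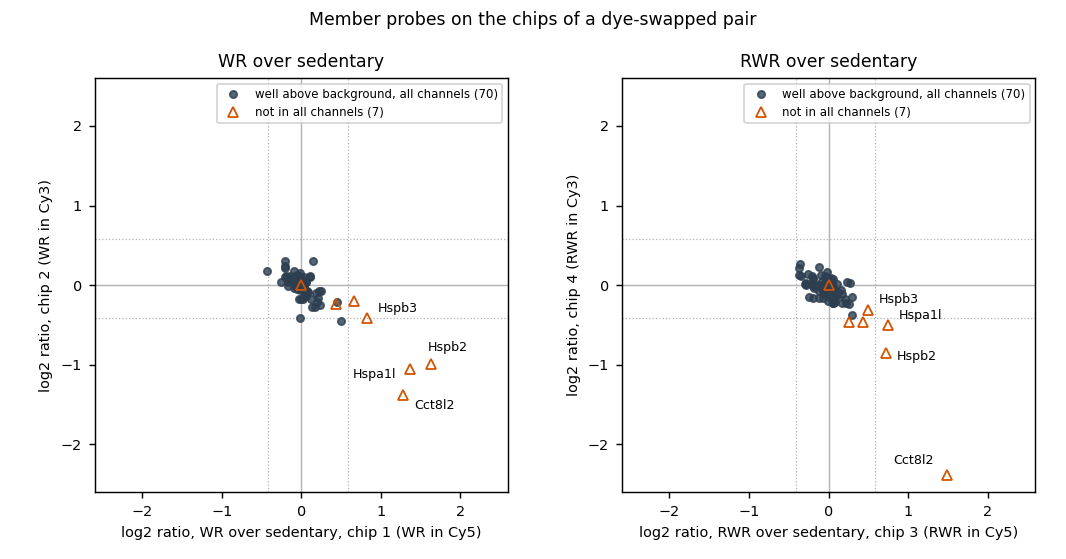
Log2 ratio of running over sedentary of the 77 member probes on the chip with the running pool in Cy5 (horizontal) against the dye-swapped chip (vertical), for WR (left) and RWR (right). Dots are the 70 probes well above background in every channel, open triangles the other 7, each placed at its listed ratio although at least 1 of its channels was not well above background, and dotted lines mark 1.5-fold and 0.75-fold; the named dim genes fall in the lower right, higher in Cy5 and lower in Cy3, and the corners that the selection rule asks for hold no probe.

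In mitochondria, Hspd1 (HSP60) and Hspe1 (HSP10) share the promoter region shown above and differed little. Hspe1 was below 0 on all 4 chips, at -0.054, -0.049, -0.016 and -0.032, with a dye part of -0.002 in WR and 0.008 in RWR. Its RWR mean of -0.024 was -0.004 with either alternative background treatment, and its WR mean of -0.052 was -0.029 with normexp. On chip 1 its processed signal was 20419 in WR and 21199 in sedentary. Hspd1 had 4 probes, with means between 0.020 and 0.067 in WR, all above 0, and between -0.079 and 0.038 in RWR, 3 of them below 0. At its brightest probe it read -0.014 and 0.055 in WR and -0.047 and 0.12 in RWR. For these genes the pools differed by less than the chips of a pair did, apart from Hspe1, whose chips lay close together at values this near 0.

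The J-domain proteins had 23 genes, with a median of -0.018 in WR and -0.021 in RWR. In WR 5 were below 0 and 2 above 0 on both chips, and in RWR 6 and 3. Over all 8899 genes with a symbol, at the brightest probe, 1034 were below 0 and 1082 above 0 on both WR chips. In RWR the counts over all these genes were 1399 and 1109. Of the Dnaja class, which has the full set of domains of bacterial DnaJ, 3 of 4 genes were below 0 on both RWR chips. Dnaja3, the mitochondrial member, read 0.059 and -0.096 in WR and -0.12 and -0.16 in RWR. Its RWR mean of -0.14 was -0.10 with normexp and -0.087 without background correction. Dnaja1, which has a heat shock element in its window, read -0.091 and 0.053 in WR and -0.20 and -0.012 in RWR. Dnaja4 read 0.027 and 0.004 in WR and -0.058 and -0.082 in RWR. The remaining gene, Dnaja2, read -0.077 and 0.071 in WR and -0.017 and 0.16 in RWR.

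Among Dnajb genes, Dnajb9, Dnajb11 and Dnajb12 of the endoplasmic reticulum were below 0 on both WR chips at their brightest probes. Dnajb11 read -0.024 and -0.17, Dnajb12 -0.17 and -0.010, and Dnajb9 -0.064 and -0.023. In RWR the same probes had means of -0.030, -0.029 and -0.056. The second Dnajb9 probe read 0.21 and -0.16 in WR and 0.30 and -0.15 in RWR. The second Dnajb12 probe had means of -0.010 in WR and 0.012 in RWR. Dnajb13, a component of the radial spokes of motile cilia and sperm, had the highest RWR mean of any member gene, 0.15, with 0.27 and 0.032 on the chips, and read 0.14 and -0.27 in WR. Its WR chips thus read in opposite directions. Dnajb6, which suppresses aggregation of polyglutamine proteins, read -0.20 and 0.22 in WR and -0.26 and 0.14 in RWR.

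The Dnajc class had a median of 0 in both comparisons, with Dnajc5g among its 13 genes. Dnajc14 was above 0 on all 4 chips, at 0.11, 0.10, 0.050 and 0.082, with a WR mean of 0.10 that was 0.045 with normexp. Dnajc3, an inhibitor of stress kinases that sits in the endoplasmic reticulum, was below 0 on all 4, at -0.087, -0.041, -0.064 and -0.11. Dnajc5 (cysteine string protein), the chaperone of synaptic vesicles, followed the dye at -0.21 and 0.24 in WR and -0.37 and 0.13 in RWR. Dnajc2, which sits on ribosomes, had means of 0.008 and 0.035. In this class the dye part was the larger, with a median size of 0.11 in WR and 0.17 in RWR against 0.043 and 0.035 for the running part.

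The CCT ring, which folds actin and tubulin, had 6 subunits with a probe: Tcp1, Cct2, Cct3, Cct4, Cct5 and Cct6a. Their median was -0.010 in WR and -0.058 in RWR, where 5 of 6 had a mean below 0, as did 50.7% of all probes. Cct4 read 0.071 and -0.079 in WR and -0.074 and -0.16 in RWR. Cct5 read -0.033 and 0.11 in WR and -0.18 and -0.040 in RWR, and its second probe -0.29 and -0.005 in RWR. Cct3 read 0.044 and -0.12 in WR and 0.042 and -0.14 in RWR at its brighter probe and -0.20 and -0.16 in RWR at the other. Cct2 had means of -0.018 and 0.008 and Tcp1 of -0.017 and -0.067. At its brighter probe Cct6a followed the dye, at -0.20 and 0.30 in WR and -0.36 and 0.26 in RWR. The second Cct6a probe read 0.15 and 0.30 in WR, above 0 on both chips, and -0.20 and 0.092 in RWR. In WR the 2 Cct6a probes differed by 0.17, the widest span between probes of 1 member gene in that comparison. The testis subunit Cct6b had means of -0.064 and -0.003, from processed signals between 31.1 and 43.1.

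Of the regulators and co-chaperones, Hsf2, the heat shock factor of development, had means of -0.018 in WR and 0.044 in RWR at its brighter probe and 0.072 and 0.14 at the other. Bag3, which links HSP70 to selective autophagy, read -0.43 and 0.18 in WR and -0.37 and 0.21 in RWR. Its dye part was -0.30 and -0.29 and its mean -0.12 and -0.084, so on average it was lower, on chips that read in opposite directions. Stip1 (HOP), the adaptor between HSP70 and HSP90, had means of 0.043 and -0.016. The prefix rule also took in Hspbp1, a nucleotide exchange factor of HSP70, with means of -0.013 and -0.036, and Hspbap1, a binding partner of HSPB1, with 0.025 and -0.040.

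Counted by direction, 18 of 77 member probes read the same way on both WR chips, 8 of them higher and 10 lower. Over all probes 22.4% read the same way, 11.6% higher and 10.7% lower. In RWR 26 of 77 did, 6 of them higher and 20 lower, where 27.2% of all probes did and 12.4% were higher. The 20 probes lower on both RWR chips were 26.0% of the members, and the share over all probes was 14.8%. Among probes well above background in every channel the shares were 28.6% of members and 16.2% of all. With the alternative background corrections and scalings the members gave 17 to 20 such probes. These probes are not independent, since several belong to 1 gene and all come from the same chips, and the difference from all probes was not tested. Counted by gene at the brightest probe, 12 of 55 member genes were lower on both RWR chips, and 1399 of all 8899 genes with a symbol. Where that probe was well above background in every channel, these counts were 12 of 48 and 1010 of 5929. On all 4 chips, 2 member probes were higher (Hsp90ab1 and Dnajc14) and 6 lower (Dnajb12, Dnajb9, Dnajc3, Hsp90aa1, Hspe1 and Hspb8). The other probes of Hsp90ab1, Dnajb12, Dnajb9 and Hsp90aa1 did not keep 1 direction. Over all probes 7.13% kept 1 direction, 3.58% higher and 3.55% lower. Among probes well above background in every channel, 11.4% of members and 10.4% of all kept 1 direction. Markers of oligodendrocytes were also lower than sedentary in these pools, with a median of -0.070 in WR and -0.11 in RWR over 4 genes. Summed over those genes, the processed signal on chip 3 was 65440.1 in RWR and 74139 in sedentary, and on chip 4 it was 54348 and 58994. The part of this in the chaperone values was not tested. Astrocyte markers had medians of 0.008 and -0.010 and microglia markers of 0.039 and 0.057, over 4 genes each. Hippocampal neuron markers had medians of 0.033 and 0.044 over 5 genes. Outside the neural tissue, Ttr of the choroid plexus was below the cutoffs in WR and Prl of the pituitary in RWR, the only markers to pass the selection rule. Of 6 choroid plexus markers 5 had a probe, with Kl and Kcne2 not well above background in any channel, and their medians were 0.20 in WR and 0.055 in RWR. Their summed processed signal was lower in WR, 404 against 595 in sedentary on chip 1 and 320.3 against 594 on chip 2, and in RWR it was 747 against 665 and 629 against 619. All 5 pituitary markers had a probe, with medians of -0.063 and 0.038. Endothelium (2 of 4 with a probe) had medians of 0.11 and -0.31, blood (2 of 3) -0.023 and 0.003, and ciliated ependyma (3 of 5) -0.086 and -0.064. Whether these cells take part in any chaperone value was not tested.

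RWR and WR were set against each other within the same dye, chip 3 minus chip 1 with running in Cy5 and chip 4 minus chip 2 with running in Cy3. A dye part that is the same on both chips cancels in this difference, which takes the sedentary RNA to be alike on all chips. By this measure 38 of 77 member probes were lower in RWR in both dyes and 17 higher, where 28.8% of all probes were lower and 23.4% higher. Among the 70 bright member probes 37 were lower, where 28.9% of all bright probes were. Across probes the Cy5 and Cy3 differences did not follow each other closely. Their correlation r was -0.009 over all probes, -0.204 over member probes and 0.290 over the bright member probes. The members' median difference was -0.035 in Cy5 and -0.022 in Cy3, beside -0.011 and -0.003 over all probes, so the shift was small. Without background correction the members gave 31 probes and with normexp 32, where 25.5% and 27.8% of all probes were lower in both dyes. The size of the shift depended on this choice: over member genes at their brightest probes the medians were -0.025 in Cy5 and -0.019 in Cy3 as deposited, -0.009 and -0.005 without background correction, and -0.006 and -0.006 with normexp, where all probes had -0.007 and 0.021.

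**Figure D4:**
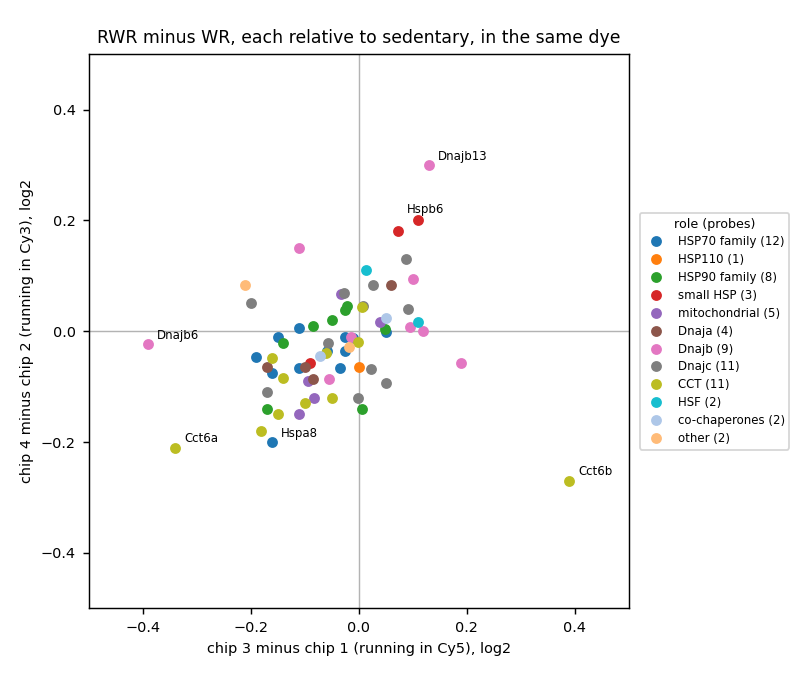
Difference in log2 ratio to sedentary between RWR and WR for the 70 member probes well above background in every channel, with the running pool in Cy5 (chip 3 minus chip 1, horizontal) and in Cy3 (chip 4 minus chip 2, vertical), coloured by role. The lower left, with values below 0 in both dyes, holds 37 probes and the upper right 17; Cct6b lies apart at the lower right, with 0.39 in Cy5 and -0.27 in Cy3, and Dnajb6 at the left, with -0.39 and -0.023.

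In this comparison the HSP70 family had 7 of 8 genes lower in RWR in both dyes and the CCT ring 5 of 6. Over all 8899 genes with a symbol, at the brightest probe, 2659 were lower in RWR in both dyes and 2106 higher. The HSP70 differences were small, with medians of -0.046 in Cy5 and -0.036 in Cy3 and means between -0.12 and -0.011, and those of the ring had medians of -0.10 and -0.043. These counts are of brightest probes as deposited, and are not given by group for the alternative background treatments. Hspa5, counted as lower, differed by -0.025 and -0.011. Its means of -0.11 in WR and -0.13 in RWR were -0.14 and -0.12 with either alternative background treatment, where RWR was no longer the lower. The other groups were not lower throughout: the count was 1 of 3 for HSP90, 1 of 5 for small heat shock proteins, 0 of 2 for the mitochondrial chaperonins and 9 of 23 for J-domain proteins, of which 8 were higher in both dyes. Hspa8 was lower in RWR by -0.11 and -0.067 at its brightest probe, and 3 of its 4 probes were lower in both dyes. Hspa1a differed by -0.010 and -0.013, less than the SD between its spots. Cct5 differed by -0.15 and -0.15, Cct4 by -0.14 and -0.085, Dnaja1 by -0.10 and -0.064 and Hsp90aa1 by -0.17 and -0.14 at its brightest probe. The other Hsp90aa1 probes differed by 0.006 and -0.14, by -0.026 and 0.038 and by 0.049 and 0.004, so 1 of 4 was lower in RWR in both dyes and 1 higher. The other way, Dnajb13 was higher in RWR by 0.13 and 0.30, Hspb6 by 0.11 and 0.20 and Hspb1 by 0.073 and 0.18. The 6 genes with the long heat shock element had medians of -0.068 and -0.064, and 4 of 6 were lower in both dyes, beside medians of -0.026 and -0.021 and 21 of 41 for the genes without it. Against sedentary, the RWR medians were alike, -0.035 with the long element and -0.040 without it. For the shorter form, 10 of 19 genes with it and 15 of 28 without it were lower in RWR in both dyes. None of these differences has a replicate of the pools behind it.

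Other genes of protein folding were read in the same way, from lists that share no gene with the members. Of 18 co-chaperones of HSP90 and HSP70, 13 had a probe, with a median of 0.016 in WR and -0.024 in RWR. Of these 13, 1 was lower and 3 higher on both WR chips, and 4 lower and 0 higher on both RWR chips. Of 18 genes of endoplasmic reticulum folding and the unfolded protein response, 13 had a probe, with medians of -0.032 and -0.046; 4 were lower and 1 higher on both WR chips, and 5 lower and 0 higher on both RWR chips. Of 12 prefoldin and mitochondrial folding genes, 4 had a probe, with medians of -0.015 and -0.066. Over all 5929 genes whose brightest probe was well above background in every channel, 905 were lower and 874 higher on both WR chips. On both RWR chips 1010 of them were lower and 938 higher. The difference of these lists from all genes was not tested. No gene of these lists passed the selection rule, with the p-value or without it.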

How the data were processed

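The authors hybridised pooled hippocampal RNA of sedentary, WR and RWR rats to 4 rat 4x44K 60-mer arrays in 2 colours with the dyes swapped, and extracted them with Agilent Feature Extraction 11.0.1.1. Per the file headers, the deposited values are background-subtracted processed signal intensities, the log10 of Cy5 over Cy3 as a dye-normalized ratio, and a p-value for it from the software's error model within 1 array. The ratios were turned to running over sedentary with the dyes in the labels and converted to log2. Outlier spots were left out and the spots of a probe averaged, with the median p. A gene was read at the probe with the highest mean processed signal.

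Probes were named by matching the printed accession to RefSeq (GRCr8). The members, lists and comparisons were chosen with earlier results of these data known. Each group is 1 pool, so no test between groups was run, and the number of arrays limits the precision. Named genes were the textbook members and, in each comparison, the 5 highest and 5 lowest bright genes with the same direction on both chips. Single probes and genes singled out for a dye effect, a span between probes or a same-dye difference were chosen after their values were seen. Alternatives were normexp (offset 50) or no background correction with loess (limma 3.58.1, R 4.3.3), the series table (log10 of the processed signals' ratio, which the authors deposited), median centring, bright probes only, other cutoffs and single chips. Other steps used Python 3.11.15 with pandas 2.3.3.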

Additional observations from a re-analysis of the deposited data

Results flagged for a closer look

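Dnaja4 and Hspb6 had opposite directions in WR and RWR, each the same on both chips of its pair. The difference between RWR and WR in mean log2 ratio to sedentary was -0.085 for Dnaja4 and 0.15 for Hspb6. Without background correction the WR value of Dnaja4 was -0.004, no longer above 0. With 1 pool per group the difference was not tested. Such opposite pairs were seen for 2 of 77 member probes and for 3.85% of all probes.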

How the results depend on the processing

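The count of 0 members past the selection rule held in both comparisons with every alternative background correction, scaling and cutoff tried, with or without the p-value, apart from single chips and a turned direction. Read on 1 chip alone, 1 to 2 members passed in WR and 2 to 2 in RWR, and 4 to 6 and 3 to 5 on the fold cutoffs alone. On single chips 3.92% to 7.81% of all probes passed, and 24.0% to 28.9% on the fold cutoffs alone, larger shares than those of the 77 members. The sets are unlike in brightness: 70 of 77 member probes but 24955 of 41012 probes in all were well above background in every channel. The part of brightness in this difference was not tested. With the direction of the chip with running in Cy3 turned, an alternative chosen after seeing the data, as were those on counts by direction, 1 member passed in WR (Hspb2) and 2 in RWR (Hspb2 and Cct8l2), and without the p-value 3 and 2. Over all probes this gave 2.66% and 3.12%, and without the p-value 17.6% and 15.6%. The median over member genes in WR was -0.012 with normexp, -0.009 without background correction and -0.006 over bright probes, and from -0.011 to -0.008 on single chips. In RWR it was -0.022 without background correction, -0.036 over bright probes, and from -0.021 to -0.016 on single chips. Of 68 values of named genes, 4 changed sign with normexp, 5 without background correction and 20 on either single chip. With normexp 12 of the 68 moved past a limit set from the spread of the 2 chips of their pair, and 12 without background correction. Among them were Hspb8, Hspe1, Dnajc14, Hsp90ab1 and Hsph1 in WR and Hspb8, Hspe1, Dnaja3, Dnajc14, Cct2 and Dnajc2 in RWR. The limit is smaller than the gap between the chips: Dnajc14 in RWR, at 0.050 and 0.082, counted as moved with a change from 0.066 to 0.040. No paired analysis was possible because each group has a single pool, so there are no replicate pools to pair; every ratio is already taken within a chip. Depth on an array is the signal over background, which leaves 7 of 77 member probes without a full set of readings.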
